A study of Mus musculus with 12 samples.

Results

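The cytosolic heat shock chaperones described here are 10 genes taken by name from a list: Hsf1, Hspa1a, Hspa1b, Hspa8, Hsp90aa1, Hsp90ab1, Hsph1, Dnajb1, Hspd1 and Hspe1. They are 10 of the 52632 genes in the deposited table, and all 10 passed the filter on low values used for testing. The name of the set does not cover every member: Hsf1 encodes a transcription factor, and the products of Hspd1 and Hspe1 work in the mitochondrial matrix.

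Total RNA of CD4 T cells, isolated from mouse kidneys by flow sorting, was sequenced in 12 libraries that fall into 4 groups of 3. The KO IRI group came from CD4 Keap1 KO mice after ischemia-reperfusion injury (IRI), in which the blood flow to both kidneys was stopped for 30 min and the kidneys were taken at 24 h. The KO control group came from CD4 Keap1 KO mice without IRI. The WT IRI and WT control groups came from wild-type mice with and without the same injury. All mice had the C57BL6/J background, the WT animals were bought and the KO animals were bred by the laboratory, so the effect of genotype and that of the animals' origin cannot be told apart. The labels do not give the animals' age, what drives the deletion of Keap1, whether controls had sham surgery, or whether replicate libraries stem from separate animals. P-values therefore measure the spread between these libraries, which may be technical. Levels are given in FPKM (fragments scaled to transcript length and to the total of the library), as deposited, and each list of 3 values follows the library numbers 1 to 3.

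Keap1 holds the transcription factor NRF2 at low levels. Keap1 itself ran from 4.59 to 7.77 FPKM in the KO libraries and from 6.03 to 9.87 FPKM in the WT libraries. The labels do not say which exons were deleted, so a value for the whole gene does not check the deletion. Nqo1, a target gene of NRF2, was higher in KO by 2.47 ± 0.20 on the log2(FPKM + 1) scale (SE; limma adjusted p = 0.000784). The median of all tested genes was itself higher in KO than in WT, by 0.29 on that scale. Members are therefore also given after each library was divided by its median ratio to the geometric mean of all libraries, which leaves a median difference of 0.04. These are called rescaled values. On that scale Keap1 ran from 4.19 to 6.35 in KO and from 6.56 to 10.7 in WT libraries, without overlap. Its difference between KO and WT was -0.34 ± 0.13 as deposited (limma adjusted p = 0.0945) and -0.61 ± 0.11 after rescaling (0.0484). Cd4, which marks the sorted cells, ran from 149 to 382 FPKM in KO and from 49.7 to 100.5 FPKM in WT libraries, without overlap. It was higher in KO by 1.62 ± 0.20 (limma adjusted p = 0.00882), and by 1.30 ± 0.14 after rescaling (0.00484). KO control 1, WT IRI 3 and WT control 3 were described in an earlier look at these data as standing apart from the other libraries. KO control 1 had the highest of the median ratios (1.34) and WT IRI 3 the lowest (0.755).

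The heat shock response is the program by which cells meet misfolded protein. HSF1, held inactive in resting cells in part by chaperones, forms trimers under stress and binds heat shock elements, which are inverted repeats of the unit NGAAN. HSP70 proteins bind unfolded stretches of client proteins in a cycle run by ATP. J proteins deliver clients and set off ATP hydrolysis, and exchange factors such as HSP110 release the nucleotide. HSP90 proteins take over partly folded clients, among them kinases and steroid receptors, with the help of cochaperones. In T cells, HSP90 clients include kinases of antigen receptor signalling such as LCK, and heat shock genes can also be induced by the handling of tissue and by cell sorting.

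Heat shock elements, to which HSF1 binds, were looked for in the promoters of the members. RefSeq promoter windows (GRCm38.p6) covered 6 of the 10 members, and the 250 bases before each start were searched on both strands for GAANNTTC and TTCNNGAA, which are 2 units of the element, and for the runs of 3 units that extend either, with overlapping matches counted. Each of the following stretches is written 5′ to 3′ on the strand of its gene, and capitals mark the matched letters.
Hspe1, chr1:55088053-55088082, plus strand: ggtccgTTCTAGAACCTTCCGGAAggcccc
Hsph1, chr5:149636351-149636380, minus strand: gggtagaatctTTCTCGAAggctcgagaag
Hspa1b, chr17:34959315-34959362, minus strand: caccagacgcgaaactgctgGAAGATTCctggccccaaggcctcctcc
Hspa1a, chr17:34972233-34972280, minus strand: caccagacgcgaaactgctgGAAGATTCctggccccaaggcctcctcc
The stretch of Hspe1 holds 3 overlapping matches of the shorter motifs and matches to both longer ones. It lies upstream of Hspe1 and within the annotated span of Hspd1, which are read from opposite strands and overlap by 112 bases, and the same matches fall in a window of Hspd1. Of all 32851 windows, 12.8% held a shorter motif and 0.466% a longer one. The windows of Hspa1a and Hspa1b differed at 3 of 250 bases and were identical over the stretch shown. Neither window of Dnajb1 held a match. A match is a description of letters and not a measured binding site.

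Hsp90ab1, the constitutive cytosolic HSP90, was the most abundant of the 10 genes, with a mean of 630.0 FPKM over the 12 libraries. Hspa8, the constitutive HSP70 also called HSC70, averaged 253.9 FPKM, and Hsp90aa1, the inducible HSP90, averaged 132.7 FPKM. Hsp90ab1 exceeded Hspa8, Hspa8 exceeded Hsp90aa1 and Hsp90aa1 exceeded Hsph1 in 12 of 12 libraries. Below them the order was less fixed. Hsph1 (68.6 FPKM) was above Dnajb1 (63.4 FPKM) in 7 libraries, and Dnajb1 was above Hspe1 (53.0 FPKM) in 7. Hspa1b averaged 36.9, Hspd1 17.8, Hspa1a 16.6 and Hsf1 14.4 FPKM. Hspa1a was above Hsf1 in only 4 of 12 libraries, so these neighbours could not be ordered.

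Hsf1 (chr15:76477422-76501913, plus strand, GRCm38) encodes the main transcription factor of the response. It had 17.7, 12.7 and 13.8 FPKM in KO IRI libraries and 23.2, 13.2 and 18.0 FPKM in KO control libraries. In WT IRI libraries it had 10.02, 12.2 and 10.9 FPKM, and in WT control libraries 13.2, 14.5 and 12.7 FPKM. It was highest in KO control 1. All KO IRI libraries lay above all WT IRI libraries, while the KO and WT controls overlapped.

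Hspa1a and Hspa1b encode the stress-inducible HSP70 and lie on the minus strand of chromosome 17, 9951 bases apart. Hspa1b (chr17:34956436-34959238) had 25.7, 109.7 and 55.2 FPKM in KO IRI libraries and 84.7, 11.8 and 35.1 FPKM in KO control libraries. It had 35.2, 7.92 and 14.7 FPKM in WT IRI libraries and 25.8, 20.2 and 16.5 FPKM in WT control libraries. KO IRI 2 and KO control 1 stood highest and WT IRI 2 lowest, and all groups overlapped. Hspa1a (chr17:34969190-34972156) had 12.5, 44.0 and 25.6 FPKM in KO IRI libraries and 42.2, 6.69 and 15.3 FPKM in KO control libraries. It had 14.2, 3.71 and 6.64 FPKM in WT IRI libraries and 10.5, 8.75 and 9.26 FPKM in WT control libraries, so the same libraries were high and low, and all KO IRI libraries lay above all WT control libraries. The copies share sequence: 62.3% of the 36-base stretches of the longest Hspa1a transcript occur in Hspa1b, so their separate values are uncertain at a read length of 36. The deposited symbol Gm20481 marks a gene on the plus strand that lies wholly within Hspa1a over 2225 bases. The strand setting is not stated, so its reads and those of Hspa1a cannot be told apart. The summed level of Hspa1a and Hspa1b ran from 38.2 to 153.7 FPKM in KO IRI, from 18.5 to 126.9 in KO control, from 11.6 to 49.4 in WT IRI and from 25.7 to 36.3 in WT control libraries.

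Dnajb1 (chr8:83608193-83612653, plus strand) encodes the J protein HSP40, which delivers clients to HSP70. It had 58.1, 127.8 and 101.7 FPKM in KO IRI libraries and 100.1, 34.7 and 63.3 FPKM in KO control libraries. It had 67.2, 45.0 and 33.7 FPKM in WT IRI libraries and 40.7, 45.8 and 43.4 FPKM in WT control libraries. Every KO IRI library was above every WT control library, but KO IRI 1 lay below WT IRI 1. Hsph1 (chr5:149614287-149636376, minus strand), which encodes the exchange factor HSP110, had 51.2, 131.6 and 75.5 FPKM in KO IRI libraries and 95.3, 63.5 and 59.9 FPKM in KO control libraries. It had 69.1, 29.9 and 47.6 FPKM in WT IRI libraries and 61.0, 81.8 and 56.6 FPKM in WT control libraries. KO IRI 2 was again the highest and WT IRI 2 the lowest, and all groups overlapped.

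Hspa8 (chr9:40800984-40810087, plus strand) had 262, 289 and 262 FPKM in KO IRI libraries and 427, 217 and 332 FPKM in KO control libraries. It had 186, 148 and 189 FPKM in WT IRI libraries and 225, 266 and 244 FPKM in WT control libraries. As deposited, the WT IRI libraries were the lowest of all and overlapped no other group. After rescaling they overlapped every other group: WT IRI 3 (251) lay above KO IRI 1 (226), KO control 2 (216) and WT control 1 (246). The share of all tested genes with WT IRI below every other group was not counted on either scale. Hsp90aa1 (chr12:110690605-110702728, minus strand) had 126, 153 and 160.2 FPKM in KO IRI libraries and 205, 125 and 151 FPKM in KO control libraries. It had 109.9, 73.6 and 78.8 FPKM in WT IRI libraries and 117, 163 and 129.8 FPKM in WT control libraries. Here too the WT IRI libraries lay below all others as deposited. After rescaling WT IRI 1 (111.7) lay above KO IRI 1 (109.0). Hsp90ab1 (chr17:45567775-45573271, minus strand) had 639.5, 878 and 927 FPKM in KO IRI libraries and 1010.3, 585 and 907 FPKM in KO control libraries. It had 452, 322 and 286 FPKM in WT IRI libraries and 549, 600.8 and 402 FPKM in WT control libraries. As deposited, only KO control 2 kept the KO libraries from lying above every WT library. After rescaling KO IRI 1 (551) also lay below WT control 1 (601) and WT control 2 (624). Of the 36-base stretches of Hspa8 and Hsp90aa1, 57.4% and 61.6% also occur in other genes. The leading such genes are the pseudogenes Gm15459 and Gm12346, listed at no more than 5.75 and 3.88 FPKM.

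Hspd1 and Hspe1 encode HSP60 and its co-chaperonin HSP10, which fold imported proteins in the mitochondrial matrix and share the start region shown above. Hspd1 (chr1:55077835-55088243, minus strand) had 17.7, 17.8 and 12.7 FPKM in KO IRI libraries and 32.3, 16.6 and 28.9 FPKM in KO control libraries. It had 9.19, 9.00 and 13.3 FPKM in WT IRI libraries and 16.5, 22.6 and 16.9 FPKM in WT control libraries. All WT IRI libraries lay below all WT control libraries. Hspe1 (chr1:55088132-55091307, plus strand) had 43.3, 73.8 and 71.8 FPKM in KO IRI libraries and 93.8, 44.6 and 81.4 FPKM in KO control libraries. It had 36.4, 23.6 and 21.1 FPKM in WT IRI libraries and 47.0, 50.9 and 48.0 FPKM in WT control libraries. The WT IRI libraries were again the lowest and overlapped no other group. After rescaling this held narrowly, with 37.0 in WT IRI 1 against 37.3 in KO IRI 1. Of the 36-base stretches of Hspd1, 52.2% also occur in other genes, mainly the pseudogene Hspd1-ps3, listed at no more than 2.11 FPKM.

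**Figure D1:**
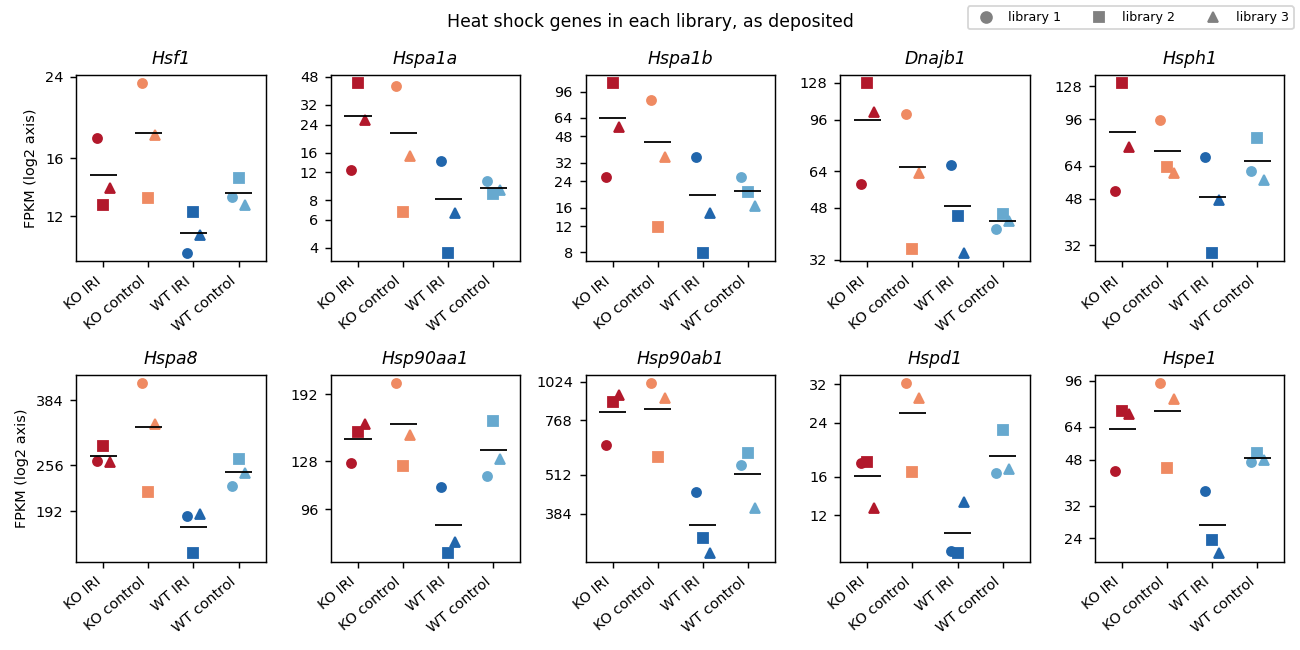
FPKM of the 10 genes in each of the 12 libraries, as deposited, on a log2 axis that does not start at 0; markers show the library number and lines the mean of a group. KO control 1, which also had the highest of the median ratios, was the highest KO control library for 10 of 10 genes. Hspa1b spanned 13.9-fold over all libraries.

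Libraries of the same group differed most in Hspa1b, Hspa1a, Dnajb1 and Hsph1. The pooled standard deviation within groups, on the log2 scale, was 1.01 for Hspa1b, 0.87 for Hspa1a, 0.54 for Dnajb1 and 0.50 for Hsph1. It was 0.41 for Hspe1, 0.34 for Hsp90ab1 and for Hspd1, 0.28 for Hsp90aa1, 0.27 for Hspa8 and 0.24 for Hsf1. The median over all tested genes was 0.369, and over protein-coding genes averaging 10 FPKM or more it was 0.293. Within WT control alone the deviation was 0.31 for Hspa1b, 0.28 for Hsph1, 0.12 for Hspa1a and 0.08 for Dnajb1. The highest library was shared. KO control 1 was the highest KO control library for 10 of 10 members and KO control 2 the lowest for 9, and after rescaling these counts were 10 and 8. The median ratios over genes in general were also highest in KO control 1 (1.34) and lowest of the group in KO control 2 (1.00). The share of all genes with this order was not counted, on either scale. KO IRI 2 was the highest KO IRI library for 7 members, WT IRI 1 the highest WT IRI library for 7 and WT control 2 the highest WT control library for 8.

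Compared between genotypes over both conditions, all 10 members had higher mean levels in KO than in WT CD4 T cells, and 2 passed the test. Hsp90ab1 averaged 814.9 ± 154 FPKM in KO IRI and 834 ± 222 FPKM in KO control, against 353 ± 87.3 FPKM in WT IRI and 517 ± 103 FPKM in WT control (SD, n = 3 each). Its difference was 0.94 ± 0.21 on the log2(FPKM + 1) scale (SE; limma adjusted p = 0.0296). Hspe1 averaged 63.0 ± 17.1 FPKM in KO IRI and 73.3 ± 25.6 FPKM in KO control, against 27.0 ± 8.21 FPKM in WT IRI and 48.6 ± 2.05 FPKM in WT control. Its difference was 0.85 ± 0.22 (limma adjusted p = 0.0376). The 2 of 10 members called higher stand beside 11.9% of all tested genes called higher in the same comparison. With the fit limited to genes averaging 5 FPKM or more, 4 of 10 members were called higher, beside 32.3% of genes. With protein-coding genes alone, 8 of 10 were, beside 31.7% of genes.

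The stress-inducible HSP70 genes had larger differences than these with wider errors, and neither they nor Dnajb1 passed. Hspa1a differed by 1.18 ± 0.45 (limma adjusted p = 0.0869), Hspa1b by 1.17 ± 0.51 (0.124) and Dnajb1 by 0.71 ± 0.28 (0.0991). The sum of Hspa1a and Hspa1b differed by 1.20 ± 0.50 (limma adjusted p = 0.111). The other 5 members had differences of 0.37 to 0.50, the smallest for Hsf1, and did not pass. At an unadjusted p under 0.05 stood 9 of 10 members, beside 37.0% of all tested genes. The median difference of the 10 was 0.61, against 0.29 for all tested genes. It was 0.42 for genes averaging 5 FPKM or more and 0.37 for protein-coding genes.

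After rescaling, no member passed in this comparison, and 0.378% of all genes were called higher. At an unadjusted p under 0.05 stood 2 of 10 members, beside 21.4% of all tested genes. Hsp90ab1 then differed by 0.62 ± 0.17 (limma adjusted p = 0.0778) and Hspe1 by 0.54 ± 0.18 (0.132), and all 10 differences stayed above 0. Under quantile normalization the differences of Hspa8, Hsp90aa1 and Hsph1 lay just below 0. As deposited, the calls of Hsp90ab1 and Hspe1 held without KO control 2 or WT IRI 1. They were lost without any other library, with limma adjusted p from 0.0501 to 0.0791 for Hsp90ab1 and from 0.056 to 0.0946 for Hspe1. Without KO control 2, 9 of 10 members were called higher, beside 25.5% of all genes in that fit. Without KO control 1, WT IRI 3 and WT control 3 together, Hsp90ab1 differed by 0.71 (0.158) and Hspe1 by 0.67 (0.197). T cell markers were higher in KO as well: their summed level was 1194 to 1562 FPKM in KO IRI and 1628 to 2516 FPKM in KO control, against 585 to 678.5 FPKM in WT IRI and 1317 to 1421 FPKM in WT control libraries. All 9 were called as deposited and 3 after rescaling, and their part in the members' differences was not tested. In bulk RNA, fewer T cells in a sort and less RNA per cell cannot be told apart.

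**Figure D2:**
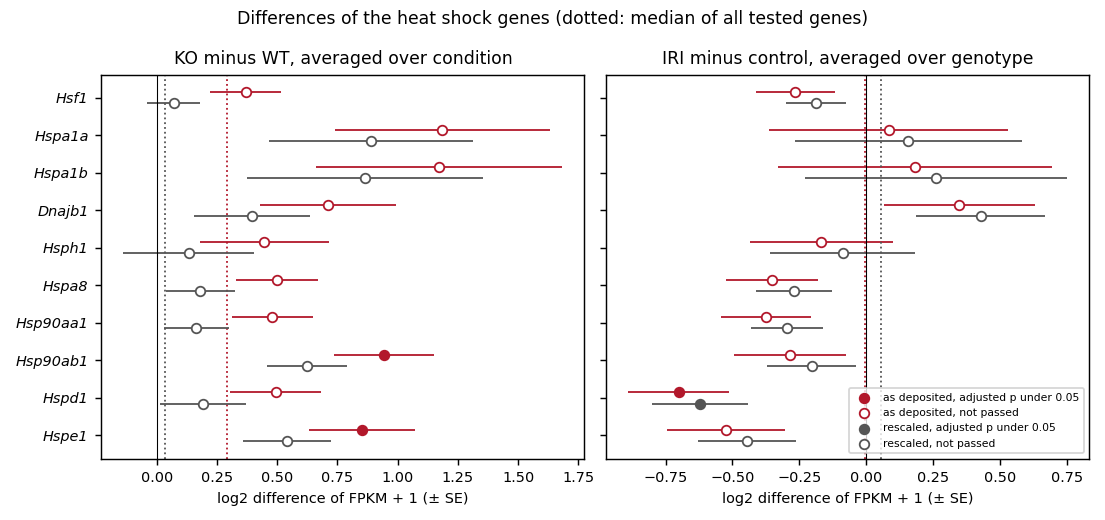
Differences of the 10 genes on the log2(FPKM + 1) scale with standard errors, KO minus WT on the left and IRI minus control on the right, as deposited (red) and rescaled (grey); filled points passed at a limma adjusted p under 0.05 and dotted lines mark the median of all tested genes. Hsp90ab1 and Hspe1 passed between genotypes as deposited only, and Hspd1 passed after IRI on both scales.

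At 24 h after IRI, no heat shock gene was called higher and the HSP60 gene was called lower. Hspd1 averaged 16.1 ± 2.94 FPKM in KO IRI against 25.9 ± 8.27 FPKM in KO control, and 10.5 ± 2.41 FPKM in WT IRI against 18.7 ± 3.43 FPKM in WT control (SD, n = 3 each). Averaged over genotype it fell by 0.70 ± 0.19 on the log2(FPKM + 1) scale (limma adjusted p = 0.0434), and by 0.62 ± 0.18 after rescaling (0.0451). This is 1 of 10 members called lower, beside 6.03% of all tested genes called lower and 7.33% after rescaling, while 3.01% were called higher. The call held without KO control 2 or WT IRI 3 and was lost without any other library, with limma adjusted p from 0.0593 to 0.105. Without KO control 1, WT IRI 3 and WT control 3 together it was -0.72 (limma adjusted p = 0.096). Hspe1, its partner, differed by -0.53 ± 0.22 and did not pass (limma adjusted p = 0.178).

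None of Hspa1a, Hspa1b, Dnajb1 and Hsph1 was called after IRI in either direction. Dnajb1 differed by 0.35 ± 0.28 (limma adjusted p = 0.501), Hspa1b by 0.18 ± 0.51, Hspa1a by 0.08 ± 0.45 and Hsph1 by -0.17 ± 0.27 (0.742). These differences for Hspa1a and Hspa1b turned below 0 without KO IRI 2, KO control 2 or WT IRI 1. Hspa8 differed by -0.35 ± 0.17, Hsp90aa1 by -0.38 ± 0.17, Hsp90ab1 by -0.28 ± 0.21 and Hsf1 by -0.26 ± 0.15, and none passed. The median of the 10 was -0.27, against 0.00 for all tested genes. Their SEs of 0.45 and 0.51 leave room for sizeable changes of Hspa1a and Hspa1b in either direction. T cell markers were lower after IRI, with 7 of 9 called, and their part was not tested here either.

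The effect of IRI was then set side by side in both genotypes. In WT mice all 3 IRI libraries lay below all 3 control libraries for 5 members (Hsf1, Hspa8, Hsp90aa1, Hspd1 and Hspe1), which 14.4% of all tested genes did. After rescaling this held for Hsp90aa1, Hspd1 and Hspe1, beside 13.6% of genes. In KO mice no member had IRI and control libraries that did not overlap, beside 8.21% of genes wholly above and 9.15% wholly below control. The genotype by IRI interaction was above 0 for all 10 members, with a median of 0.54 against 0.00 for all genes. None had an unadjusted p under 0.05, beside 3.35% of all tested genes, so a count of 0 among 10 says little. None was called, and the lowest limma adjusted p was 0.999. Of all tested genes 0.00518% was called. The largest values were 1.01 ± 1.02 for Hspa1b and 0.88 ± 0.89 for Hspa1a, so their errors were as large as the values. Hspe1 had 0.67 ± 0.44, Hsph1 0.66 ± 0.53 and Hsp90aa1 0.54 ± 0.34.

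Set against WT mice after IRI alone, KO mice after IRI had higher levels of 5 members with no overlap between libraries (Hsf1, Hspa8, Hsp90aa1, Hsp90ab1 and Hspe1), as did 24.9% of all tested genes. After rescaling, Hsp90ab1 and Hspe1 stayed apart, beside 11.8% of genes. By limma no member was called in this comparison, beside 0.0518% of genes called higher, and the lowest adjusted p was 0.1. At an unadjusted p under 0.05 stood 7 members, beside 22.4% of all genes. In controls no member of KO lay wholly above WT, beside 20.1% of genes, and none was called. There 0.0259% of all genes were called higher, and 1 member had an unadjusted p under 0.05, beside 20.9% of all genes. In the comparisons of IRI with control within a genotype none was called either, beside 0.866% of all genes called in either direction in KO and 3.78% in WT. An unadjusted p under 0.05 was found for 1 member in KO, beside 14.0% of all genes, and for 3 members in WT, beside 18.0%. These comparisons share groups with those above and add no independent libraries.

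In these libraries Hsp90ab1 stood further above Hsp90aa1 in KO than in WT. Within each library, which removes any scaling between libraries, Hsp90ab1 stood above Hsp90aa1 by a factor of 5.06, 5.75 and 5.79 in KO IRI and 4.93, 4.69 and 6.03 in KO control libraries. The factor was 4.11, 4.37 and 3.63 in WT IRI and 4.69, 3.68 and 3.09 in WT control libraries. All 6 KO libraries lay above all 6 WT libraries, with KO control 2 and WT control 1 almost equal. The mean log2 difference was 0.46, both after IRI and in controls. A 2-sided exact permutation test within conditions gave p = 0.005, the smallest that its 400 arrangements allow, and 0.04 after adjustment over the 8 tests of 4 ratios. This ratio was chosen after its values were seen, a choice that the adjustment does not cover. Its p-values therefore describe the separation of these libraries and do not test it independently. Its adjusted exact p was 0.08 without KO control 1, KO control 2 or WT control 3 and 0.12 without KO control 3, and the difference stayed between 0.39 and 0.54 whichever library was left out. Without KO control 1, WT IRI 3 and WT control 3 together it was 0.37 (exact p = 0.0167, the smallest possible there, 0.133 adjusted).

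The other ratios did not pass, with adjusted exact p of 0.496 or more. Hspe1 over Hspd1 ran from 2.44 to 5.66 in KO and from 1.59 to 3.96 in WT libraries, with a mean log2 difference of 0.35 (exact permutation p = 0.25). Inducible HSP70 over constitutive HSP70, as Hspa1a plus Hspa1b over Hspa8, ran from 0.0853 to 0.532 in KO and from 0.0787 to 0.265 in WT libraries. Its mean log2 difference was 0.73 between genotypes (exact permutation p = 0.145) and 0.50 between IRI and control (exact permutation p = 0.31). Hspa1b over Hspa1a stayed between 1.77 and 2.50 in all 12 libraries. As 62.3% of the 36-base stretches of Hspa1a occur in Hspa1b, this ratio also depends on how shared reads were split.

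**Figure D3:**
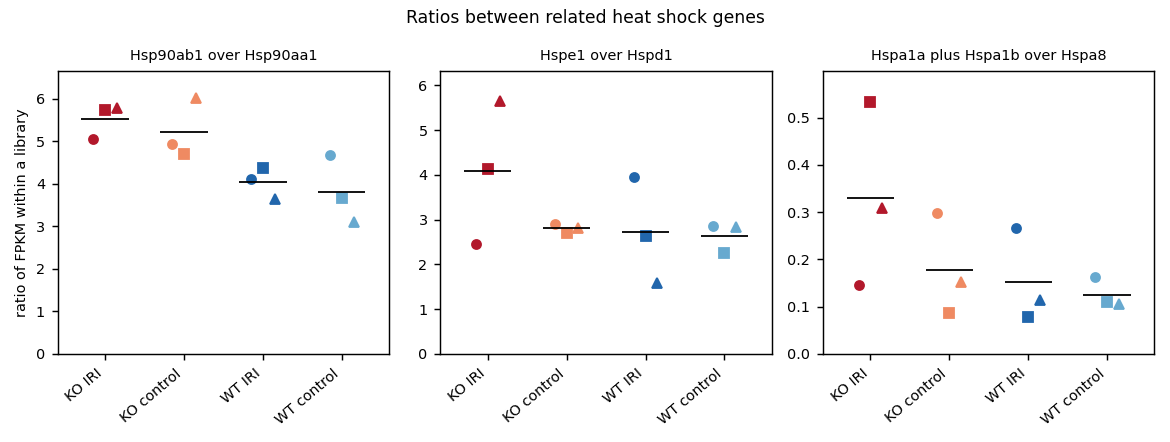
Ratios of FPKM between related heat shock genes within each library, with circles, squares and triangles for libraries 1, 2 and 3 and lines for group means. Hsp90ab1 over Hsp90aa1 was 4.69 to 6.03 in KO and 3.09 to 4.69 in WT libraries.

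Partners of the 10 genes, taken from lists of the chaperone network, included several called after IRI, among them genes whose products work with HSP90. Stip1, which bridges HSP70 and HSP90, had 11.6, 9.76 and 11.9 FPKM in KO IRI against 27.1, 14.5 and 18.6 FPKM in KO control libraries. It had 5.72, 7.12 and 7.20 FPKM in WT IRI against 15.4, 21.7 and 15.8 FPKM in WT control libraries. No IRI library reached its own control group, and the difference was -1.01 ± 0.16 (limma adjusted p = 0.00373). Fkbp4, an immunophilin of steroid receptor complexes, fell by 0.91 ± 0.12 (0.00124). Cdc37, which loads kinases onto HSP90, fell by 0.88 ± 0.16 (0.00675), and Sugt1, which ties HSP90 to other client complexes, fell by 0.71 ± 0.13 (0.00878).

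Fkbp5, an immunophilin induced by glucocorticoids, went the other way. It had 65.1, 44.0 and 41.8 FPKM in KO IRI against 25.8, 19.3 and 15.6 FPKM in KO control libraries, and 36.5, 41.1 and 17.6 FPKM in WT IRI against 10.3, 10.5 and 11.5 FPKM in WT control libraries. The groups did not overlap in either genotype, and the rise was 1.33 ± 0.22 (limma adjusted p = 0.0045). Of the 11 HSP90 cochaperones, 4 fell, 1 rose and 6 did not pass, with a median of -0.46. Of all tested genes 6.03% were called lower and 3.01% higher. After rescaling, 5 cochaperones fell and 2 rose, beside 7.33% and 6.35% of all tested genes. The calls of Stip1, Fkbp4, Cdc37 and Fkbp5 held under 24 of 24 alternatives and that of Sugt1 under 23.

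**Figure D4:**
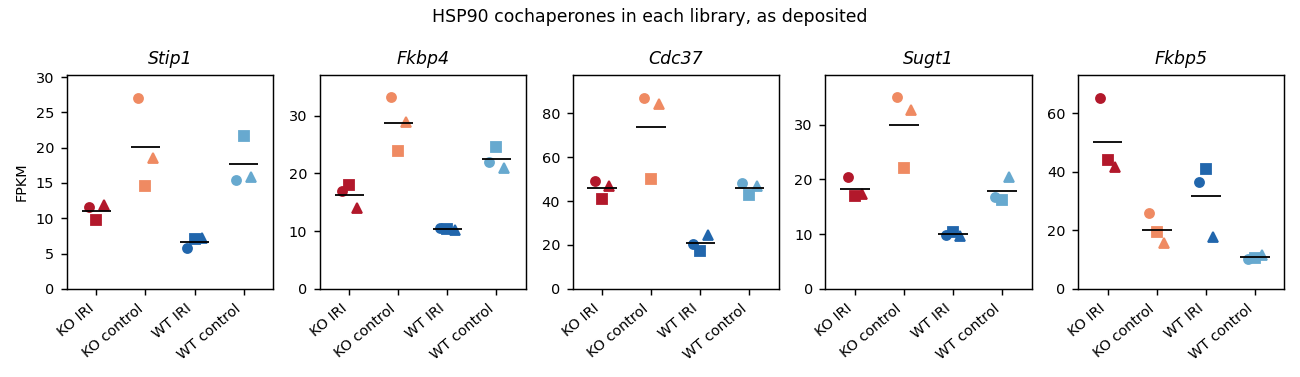
FPKM of 5 HSP90 cochaperones in each library, as deposited, with circles, squares and triangles for libraries 1, 2 and 3 and lines for group means. Stip1, Fkbp4, Cdc37 and Sugt1 were lower and Fkbp5 higher after IRI.

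Of the chaperones of the endoplasmic reticulum, 10 of 16 were called lower after IRI, with a median of -0.64. This count and those of the lists below stand beside 6.03% of all tested genes called lower. In the fit of protein-coding genes alone, in which these lists were not counted, the share was 12.3%. Pdia4 and Pdia3, disulfide isomerases, fell by 1.17 ± 0.13 and 0.76 ± 0.11, Sdf2l1 by 1.22 ± 0.15 and Calr, which encodes calreticulin, by 0.78 ± 0.12. Of the mitochondrial partners of Hspd1 and Hspe1, 2 of 9 were called lower: Dnaja3, a matrix J protein, by 0.60 ± 0.11 (limma adjusted p = 0.00933) and Trap1, the mitochondrial HSP90, by 0.52 ± 0.13 (0.03). In the cytosolic TRiC chaperonin 1 of 8 subunits fell (Cct5, -0.53 ± 0.14), and among HSP70 partners 1 of 9 (St13, -0.77 ± 0.19). The calls of Trap1, Cct5 and St13 were lost without most single libraries. That of Trap1 held without KO IRI 1, KO control 2, WT IRI 3 or WT control 3 and was lost without any of the other 8, with limma adjusted p up to 0.0749. That of Cct5 held without KO IRI 3, KO control 2, WT IRI 3 or WT control 1 and was lost without any of the other 8 (up to 0.0905). That of St13 held without KO control 2, WT IRI 3 or any 1 WT control library and was lost without any of the other 7 (up to 0.0804). No prefoldin subunit of 6, none of 8 other J proteins, none of 3 tested relatives or regulators of HSF1 and none of 5 tested further HSP70 and small heat shock genes was called after IRI as deposited. The nearest to passing in these 4 lists were Pfdn1 (-0.46 ± 0.16) and Pfdn4 (-0.39 ± 0.18), Dnajc7 (-0.30 ± 0.16) and Dnaja2 (-0.27 ± 0.18), Hsf4 (-0.51 ± 0.17) and Hsf2 (0.32 ± 0.11), and Hspa2 (0.58 ± 0.18) and Hspa4l (-0.44 ± 0.17). After rescaling, Hsf2 (0.39 ± 0.10) and Hspa2 (0.64 ± 0.17) passed as higher.

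Between genotypes every called network gene was higher in KO as deposited, and none was called after rescaling. Higher in KO were 6 of 11 HSP90 cochaperones, 9 of 16 endoplasmic reticulum chaperones, 4 of 9 mitochondrial partners, 3 of 9 HSP70 partners (Bag1, Bag3 and Bag5), 2 of 8 J proteins (Dnaja2 and Dnajc7), 2 of 8 TRiC subunits, 2 of 6 prefoldin subunits and 2 of 3 relatives or regulators of HSF1 (Hsf2 and Hsbp1), against 0 of 5 further HSP70 and small heat shock genes. These counts stand beside 11.9% of all tested genes called higher in KO. In the fit of protein-coding genes alone the share was 31.7%, but the lists were not counted in that fit. The smaller counts are therefore not read as more than the share of all genes. Among the largest differences were those of Dnaja2 (0.92 ± 0.18), Cdc37 (0.87 ± 0.16), Pdia4 (0.83 ± 0.13), Pfdn1 (0.82 ± 0.16) and Bag1 (0.70 ± 0.16). The calls of these 5 genes held when 1 library was left out in 6, 7, 8, 6 and 3 of 12 cases in that order, and those of Bag3, Bag5, Dnajc7, Hsf2 and Hsbp1 in 1 to 3. Immediate early genes, which respond to stimulation and to tissue handling, had 8 of 16 called higher in KO as deposited and 0 after rescaling. Of all tested genes 11.9% and 0.378% were called higher there. After IRI 2 of the immediate early genes were called higher as deposited, Zfp36 (1.09 ± 0.18) and Ier3 (1.51 ± 0.30), and 8 after rescaling. Of all tested genes 3.01% and 6.35% were called higher after IRI. The summed level of the 16 immediate early genes was 3522 to 4240 FPKM in KO IRI and 2224 to 3187 FPKM in KO control, against 1800 to 2814 FPKM in WT IRI and 1591 to 2129 FPKM in WT control libraries. In KO control 1 it was the highest of its group, as were all 10 heat shock genes, and in KO IRI 1 it was the highest of its group while 7 of the 10 were lowest there. Their part in the members' differences was not tested.

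Markers of other cells varied between libraries. The summed level of 7 kidney tubule genes ran from 12.6 to 481 FPKM in KO IRI and 0.482 to 154.5 FPKM in KO control, against 10.1 to 166 FPKM in WT IRI and 6.52 to 102 FPKM in WT control libraries. Among them Lcn2 was called higher after IRI, by 4.22 ± 0.68 (limma adjusted p = 0.004). The sum of 7 macrophage and monocyte genes was 55.6 to 128.5 FPKM in KO IRI against 142 to 307 FPKM in KO control, and 74.8 to 84.0 FPKM in WT IRI against 104.6 to 161 FPKM in WT control libraries. The sum of 7 CD8 T and NK cell genes was 21.6 to 32.3 FPKM in KO IRI against 78.9 to 132.5 FPKM in KO control, and 24.9 to 29.1 FPKM in WT IRI against 93.1 to 126.6 FPKM in WT control libraries. These sums were lower after IRI without overlap, as were the T cell genes. The sum of 5 B cell genes was 3.95 to 7.78 FPKM in KO IRI against 20.5 to 80.7 FPKM in KO control, and 4.18 to 13.6 FPKM in WT IRI against 8.71 to 45.9 FPKM in WT control libraries. The sum of 6 neutrophil genes was 3.72 to 34.3 FPKM in KO IRI against 11.9 to 16.2 FPKM in KO control, and 18.1 to 39.5 FPKM in WT IRI against 16.6 to 22.4 FPKM in WT control libraries. This sum joins genes that moved in opposite directions after IRI. S100a8 (2.52 ± 0.43), S100a9 (2.14 ± 0.54) and Retnlg (1.32 ± 0.35) were called higher and Mmp9 (-2.21 ± 0.18) lower. Of all tested genes 3.01% were called higher and 6.03% lower. Of the 4 endothelial genes, Cdh5, Kdr and Emcn stayed at or under 1.20 FPKM in every library, while Pecam1 ran from 22.6 to 51.7 FPKM. Pecam1 was called higher in KO as deposited, by 0.57 ± 0.16 (limma adjusted p = 0.0469), but not after rescaling (0.344). No gene of these lists was listed at 0 in all libraries. KO control 1, where all 10 heat shock genes led their group, also had the highest B cell and macrophage sums and the lowest tubule sum of the 12, and what part these had was not tested.

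The genes whose levels ran most like those of each member were looked for among 12055 protein-coding genes outside the set, by the root mean square difference of log2(FPKM + 1) after centring over the 12 libraries. Dnajb4 was the nearest to Dnajb1, at 0.224, where Dnajb1 itself varied by 0.602, and was among the nearest 3 to Hspa1a (0.541) and Hspa1b (0.643). Hspa1a and Hspa1b were nearest to each other at 0.17, and outside the set to Gm20481 at 0.314 and 0.33. These genes share sequence or overlap, so shared reads cannot be told apart from a likeness in level. Ahsa1 was nearest to Hsp90aa1 at 0.114 and next to Hspa8 at 0.128, behind Pfdn6 at 0.123. Hsph1 had no near neighbour, its closest being Tada2a and Dnaja1 at 0.301, with an own variation of 0.503. Hspd1 ran nearest to Prkdc (0.144) and the T cell gene Cd3d (0.145), Hspe1 to Cox6c (0.18), Hsp90ab1 to Wdr12 (0.129) and Hsf1 to Zfp839 (0.0999). These likenesses rest on deposited values, so differences in scale between libraries were not removed. They describe 12 libraries that share their preparation.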

How the data were processed

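The authors deposited gene levels as FPKM, 1 value for each gene and library, per the file headers. Per the labels' protocols, libraries were made from 1 ng of total RNA with a stranded kit and read as 36-base pairs. The submitters' processing notes list Partek 7.0, Cufflinks 2.2.1, TopHat2 2.1.0, bcl2fastq 2.17.1.14 and the build GRCm38. Annotation, strandedness of counting and scaling across libraries are not given in the sources used here. FPKM gives no counts, so depth is unknown and no counting error is attached. Gene IDs were matched to GENCODE mouse release 21 for 52485 genes. Tests used limma 3.58.1 in R 4.3.3 (mean-variance trend) on log2(FPKM + 1) for the 19288 genes averaging 1 FPKM or more, with 1 mean per group, 12 libraries, 8 residual degrees of freedom and Benjamini-Hochberg adjustment at 0.05 over all tested genes. Differences on that scale understate changes of low genes. Averaged comparisons take the mean of both genotypes or conditions. The fit was tested on simulated data. Rescaling used 16018 genes above 0 in all libraries. Shared 36-base stretches were counted between transcripts on the same strand. The 10 members and the lists were chosen with earlier results of these data known. Named partners are up to 4 genes of a list with the smallest adjusted p, or the 2 nearest if none passed. Sugt1, the pairs of genes in ratios and the libraries named were chosen after their values were seen. Same-numbered libraries were checked for pairing: 1 of 18 pairs correlated over 0.1 in their deviations, so numbers were not used to pair.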

Additional observations from a re-analysis of the deposited data

How the results depend on the processing

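Counts are of all genes called and, where given, of the 10 heat shock genes called, for IRI against control averaged over genotype (1744 genes, 1 of 10) and KO against WT averaged over condition (2639 genes, 2 of 10). Median-ratio rescaling gave 2639 genes for IRI, and 106 genes and 0 of 10 for KO. Quantile normalization gave 2644 genes for IRI, and 54 and 0 of 10 for KO, with KO differences of -0.029 for Hspa8, -0.024 for Hsp90aa1 and -0.028 for Hsph1. A common sum over protein-coding genes gave 266 and 0 of 10 for KO. No filter on low values gave 1081 and 0 of 10 for IRI and 211 and 0 of 10 for KO. A mean of at least 5 FPKM gave 4 of 10 for KO, beside 34.2% of the genes then tested, and protein-coding genes alone 4185 and 8 of 10, beside 34.7%. Without the libraries KO control 1, WT IRI 3 and WT control 3 the counts were 1068 and 0 of 10 for IRI and 54 and 0 of 10 for KO.

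The replicate block, from numbers that did not pair the samples, gave 0 of 10 for IRI and 1687 genes and 1 of 10 for KO. With rescaling the block gave 0 of 10 for IRI and 29 and 0 of 10 for KO. Of the 12 libraries, 7 correlated best with their own number, as a hint from the data.

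The interaction (1 gene) gave 0 genes with pseudocount 5 or protein-coding genes alone, 3 without a filter and 28 without the 3 libraries. IRI in WT (729 genes) gave 1531 rescaled, 1767 under quantile normalization, 1114 with the common sum, 405 without a filter, 1169 for protein-coding genes, 1249 with block and rescaling and 224 without the 3 libraries. IRI in KO (167) gave 398, 327, 335, 78, 552, 307 and 40 under the same settings. KO in controls (5) gave 10 with pseudocount 0.1, 3 with pseudocount 5, 38 for protein-coding genes and 31 without the 3 libraries. KO after IRI (11) gave 6 with the common sum, 0 with pseudocount 5, 81 at a mean of at least 5 FPKM, 551 and 2 of 10 for protein-coding genes, 3 with the block, 0 with block and rescaling, and 19 without the 3 libraries.

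Leaving out each library in turn gave 1044 to 2615 genes and 0 to 3 of 10 for IRI, 34 to 5898 and 0 to 9 of 10 for KO, 2 to 12 for the interaction, 255 to 917 for IRI in WT, 44 to 848 for IRI in KO, 4 to 1961 for KO in controls, and 0 to 552 and 0 to 2 of 10 for KO after IRI. The highest KO counts, 30.6% of all genes and 9 of 10, came without KO control 2, as did 3 of 10 for IRI beside 13.6%. Differences after IRI turned to -0.12, -0.21 and -0.14 for Hspa1a and -0.07, -0.17 and -0.09 for Hspa1b without KO IRI 2, KO control 2 and WT IRI 1, within ranges that reached 0.41 and 0.52. For single members, 403 values under alternatives kept their direction and side of the threshold, 47 lost and 17 gained a call and 9 changed sign. The causes were not tested. Depth is unknown for FPKM.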
